A study of Mus musculus with 2 samples.

Results

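The genes described here carry the type I interferon signal from the cell surface to the nucleus and back. They are the receptor chains Ifnar1 and Ifnar2, the receptor-bound kinases Jak1 and Tyk2, the transcription factors Stat2, Irf9 and Irf7, and the feedback inhibitors Socs1 and Socs3. They were chosen by gene symbol, and all 9 were found among the 32544 genes counted in both libraries. The cells came from mouse bone marrow and were taken the day after RANKL, the cytokine that starts osteoclast formation, was added. One library was labelled control, a label that does not spell out the alleles. The other, called mutant below, came from LysM-Cre;Arid1afl/fl mice, in which a Cre driven by the lysozyme M gene of myeloid cells removes floxed exons of Arid1a, which encodes part of the BAF chromatin remodeller. Both cultures received 50 ng/ml M-CSF, the macrophage growth factor, and 100 ng/ml RANKL. The study compared them to ask how loss of Arid1a affects the path from precursor to osteoclast.

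Type I interferons bind Ifnar1 and Ifnar2, which bring the kinases Tyk2 and Jak1 together. The kinases phosphorylate STAT proteins, and Stat2 joined to Irf9 enters the nucleus within the complex ISGF3, which binds the interferon-stimulated response element of its target genes. Irf7 is itself such a target and in turn drives interferon genes, whereas Socs1 and Socs3 restrain the kinases. In macrophages a low tonic interferon signal sets the resting level of many of these genes, and interferon beta is a known brake on osteoclast formation.

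The promoters of the 9 genes were read from the GRCm39 genome, to show whether sites for the pathway's own factors lie there. Each window ran from 250 bases before to 50 bases after the start of the Ensembl canonical transcript in GENCODE release M39. It was searched on both strands for the interferon-stimulated response element, written as GAAA, any 2 bases and GAAA, and for the gamma-activated site, TTCNNNGAA, which STAT dimers bind. The patterns can overlap, since both hold GAA. Stat2 held 1 response element, and Ifnar2, Socs1 and Socs3 held 1 gamma-activated site each, of which that of Socs1 lay after the start and is not shown. No promoter of the 9 held both. Among 21770 protein-coding promoters of the same length, 3.84% held the first pattern and 8.81% the second. The windows of Ifnar1, Jak1, Tyk2, Irf7 and Irf9 held neither run of letters. As annotated, the Irf9 and Socs3 genes begin upstream of their windows, at 55841028 and 117860898, so those starts were not searched. The Socs3 match thus lies within the annotated gene, upstream of its canonical start. The stretches with the match in capitals, all upstream of the start and printed on the strand of the gene, are shown as the places where the pathway's own factors could meet the promoters of its parts. They cover chr10:128106102-128106199 (plus strand) for Stat2, chr16:91169421-91169510 (plus strand) for Ifnar2 and chr11:117860293-117860373 (minus strand) for Socs3.
Stat2: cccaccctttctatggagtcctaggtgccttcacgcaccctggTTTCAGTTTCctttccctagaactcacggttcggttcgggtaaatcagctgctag
Ifnar2: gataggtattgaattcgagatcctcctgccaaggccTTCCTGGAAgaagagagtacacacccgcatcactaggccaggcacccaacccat
Socs3: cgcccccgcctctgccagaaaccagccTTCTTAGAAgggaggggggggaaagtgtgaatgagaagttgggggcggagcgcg
The Stat2 match is read on the opposite strand and ended 198 bases before the start, and those of Ifnar2 and Socs3 ended 206 and 215 bases before it.

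After cells with under 500 genes or over 10% mitochondrial counts were left out, 6269 control and 5663 mutant cells remained, with medians of 23978 and 21734 unique molecular identifiers (UMIs, counts of captured mRNA molecules), and 7 kept barcodes occurred in both libraries. Arid1a itself was at 51.9 CPM (UMIs of the gene per 1000000 UMIs) in control cells and 20.4 in mutant cells. Transcripts that have lost the floxed exons still give reads at their 3′ end, so this level does not measure the deletion. The 7 macrophage and monocyte markers were detected in both libraries, but 6 of them were higher in the mutant library, from 1.29-fold for Cd68 to 2.06-fold for Itgam, 3.64-fold for Adgre1 and 5.04-fold for Fcgr1, and Lyz2 was lower at 5432 against 10803 CPM. Mertk, a marker of resident macrophages, was low, at 1.64 CPM in control cells and 3.33 in mutant cells. The part of these markers in the results was not tested. With 1 library per group there is no replicate check and no test. Intervals are 95% and cover counting error only, and a difference between libraries cannot be told apart from a difference between genotypes.

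Irf7 and Stat2 were the members that stood apart between the libraries, and the receptor chains, kinases and feedback inhibitors differed far less. Of the 9 genes, 2 were at least 2-fold higher in the mutant library and 0 at least 2-fold lower. Among the 5219 genes whose mean reached 20 CPM over both libraries, 5.65% were at least 2-fold higher and 1.13% at least 2-fold lower. Only 6 of the 9 reached that mean, and Stat2 did so through the mutant library alone. The median log2 ratio of the 9 was 0.36, against 0.022 over all 5219 genes. All 9 ratios were above 0, and so were those of 2735 of the 5219 genes. With totals that leave out mitochondrial and ribosomal protein genes, which move the all-gene median to -0.088, or with median-of-ratios scaling, 8 of the 9 were above 0.

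Ifnar1, on chromosome 16 (91281942 to 91305789, plus strand), encodes the chain that holds Tyk2. It was at 48.9 CPM (47.8 to 50.0) in control cells and 63.6 CPM (62.2 to 64.9) in mutant cells, with a log2 ratio of 0.38 (0.33 to 0.42). Ifnar2, its neighbour on the same strand (91169618 to 91202723), encodes the chain that holds Jak1 and was at 64.1 CPM (62.9 to 65.4) and 82.2 CPM (80.6 to 83.7), a log2 ratio of 0.36 (0.32 to 0.40). Both chains were therefore higher by a similar ratio, yet 20.7% and 21.8% of the 5219 genes had a higher ratio than theirs. At an equal depth of 5000 UMIs per cell, 22.1% of control and 26.8% of mutant cells had an Ifnar1 UMI, and 26.8% and 32.9% had an Ifnar2 UMI. The difference was 4.69 percentage points (3.10 to 6.29) for Ifnar1 and 6.16 points (4.47 to 7.86) for Ifnar2.

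Jak1, which serves many cytokine receptors besides the interferon receptor, was at 92.5 CPM (91.0 to 94.0) in control cells and 115 CPM (113 to 117) in mutant cells, with a log2 ratio of 0.32 (0.28 to 0.35). It lies on chromosome 4 (101008838 to 101122487, minus strand) and overlaps Raver2 on the other strand. A Jak1 UMI was found in 36.4% of control and 43.6% of mutant cells. Tyk2, the partner kinase on chromosome 9 (21015363 to 21042689, minus strand), was at 11.5 CPM (10.9 to 12.0) and 12.2 CPM (11.6 to 12.8). Its log2 ratio was 0.086 (-0.011 to 0.18), so a difference in Tyk2 was not detectable at this depth. With every cell weighing alike it was 0.21, and with totals without mitochondrial and ribosomal protein genes -0.023. The share of cells with a Tyk2 UMI was 5.49% and 5.93%, which differ by 0.439 points (-0.425 to 1.31).

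Stat2, on chromosome 10 (128106352 to 128128735, plus strand), is the STAT used almost solely by interferon receptors. It was at 9.90 CPM (9.42 to 10.4) in control cells and 53.7 CPM (52.5 to 55.0) in mutant cells, 5.42-fold higher with a log2 ratio of 2.44 (2.36 to 2.52). Its intervals were far apart, and 0.613% of the 5219 genes had a higher ratio. Irf9, the DNA-binding partner of Stat2, was at 32.6 CPM (31.7 to 33.5) and 52.4 CPM (51.2 to 53.6), a log2 ratio of 0.69 (0.63 to 0.74) that 10.2% of genes exceeded. Thus the partners within ISGF3 differed unequally, by 5.42-fold and 1.61-fold. Irf9 (chromosome 14, 55841028 to 55847812, plus strand) overlaps Rnf31 on its own strand, so reads near that gene cannot be assigned with certainty. The share of cells with a UMI was 4.61% and 22.9% for Stat2, and 14.7% and 23.4% for Irf9.

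Irf7 had the largest ratio of the 9 genes. It was at 78.7 CPM (77.3 to 80.1) in control cells and 612 CPM (608 to 617) in mutant cells, 7.78-fold higher with a log2 ratio of 2.96 (2.93 to 2.99), and 15 of the 5219 genes had a higher ratio. It lies on chromosome 7 (140842619 to 140846398, minus strand) and overlaps Phrf1 on the other strand. Kits of this kind keep the strand, but how the counting used it is not given in the sources used here. An Irf7 UMI was found in 26.4% (25.3 to 27.6) of 6101 control cells and 90.5% (89.7 to 91.3) of 5312 mutant cells at 5000 UMIs per cell, a difference of 64.1 points (62.7 to 65.4).

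**Figure D1:**
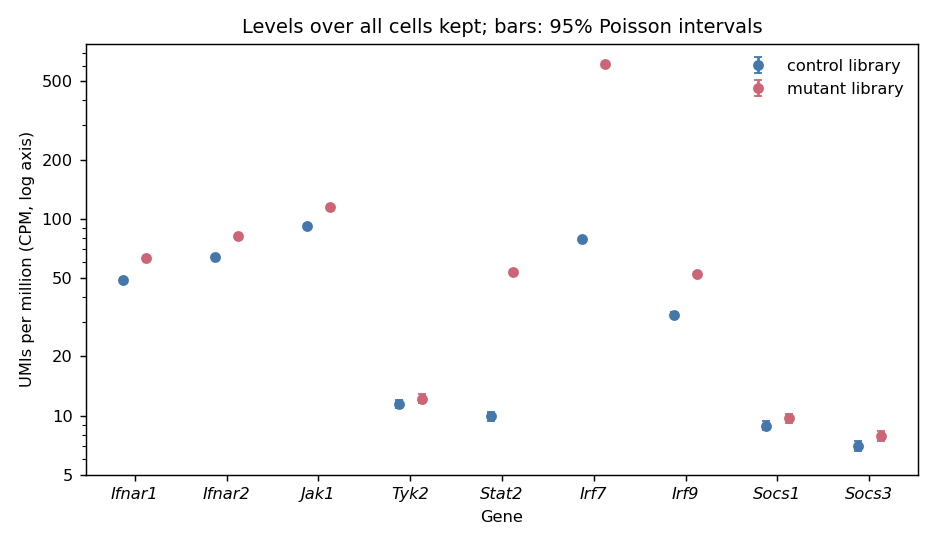
Level of each gene over all cells kept, in CPM on a log axis, for the control (blue) and mutant (red) library; bars are 95% Poisson intervals and are mostly smaller than the points. Irf7 and Stat2 lie far apart between the libraries, and Tyk2, Socs1 and Socs3 nearly meet.

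Socs1, which blocks the kinase domain of JAK proteins, was at 8.88 CPM (8.43 to 9.35) in control cells and 9.70 CPM (9.17 to 10.2) in mutant cells. Its log2 ratio was 0.13 (0.017 to 0.24), and 39.1% of genes had a higher one. Socs3, which acts mainly at the receptors of the interleukin-6 family, was at 7.00 CPM (6.60 to 7.42) and 7.88 CPM (7.41 to 8.37), a log2 ratio of 0.17 (0.047 to 0.29). The feedback genes were thus 1.09-fold and 1.13-fold higher, and with every cell weighing alike the log2 ratios were 0.28 for Socs1 and 0.19 for Socs3. With totals without mitochondrial and ribosomal protein genes they were 0.018 and 0.061, so these small differences depend on the scaling. Cells with a UMI made up 4.25% and 4.74% for Socs1 (chromosome 16, 10600104 to 10603875, minus strand) and 3.61% and 3.65% for Socs3 (chromosome 11, 117856905 to 117860898, minus strand), and both differences had intervals that span 0.

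The spread of Irf7 over single cells differed from that of the other members. In the control library 73.6% of cells had 0 Irf7 UMIs at equal depth, 18.0% had 1, 7.69% had 2 to 4 and 0.754% had 5 or more. In the mutant library the same classes held 9.49%, 16.5%, 50.4% and 23.6% of cells. The gap was thus not made by a small set of cells: most mutant cells had several UMIs, a level reached by few control cells. The variance over the mean of Irf7 UMIs per cell, which is 1 for random capture from equal cells, was 2.08 in control cells and 1.78 in mutant cells. For the other 8 members it lay between 1.04 and 1.20 in control cells and between 1.03 and 1.21 in mutant cells. This measure nears 1 as the mean falls, so it compares only genes of like mean. In control cells Irf7 had a mean of 0.417 UMIs per cell, and Jak1, with a mean of 0.459, had a variance over mean of 1.05. In mutant cells the mean was 3.14 for Irf7 and at most 0.588 for the others. Neither the mutant values nor those of Irf7 between the libraries therefore rank the spread. Stat2 had 2 to 4 UMIs in 0.328% of control and 4.07% of mutant cells, and Irf9 in 1.44% and 3.71%.

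**Figure D2:**
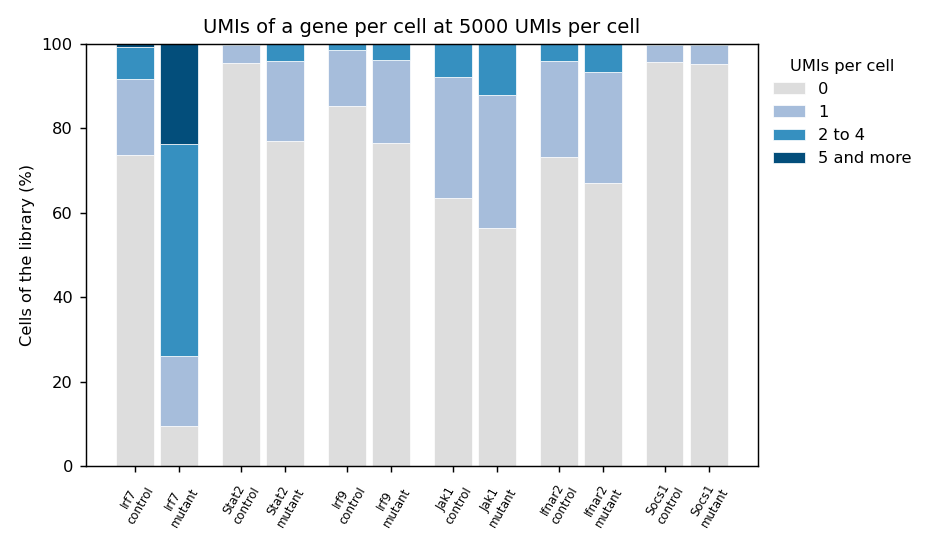
Percent of cells of each library with 0, 1, 2 to 4, or 5 and more UMIs of 6 of the genes, after every cell was thinned to 5000 UMIs. The Irf7 bars of the control and mutant library differ most, with 73.6% and 9.49% of cells at 0, whereas the Socs1 bars look alike.

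The other members were then read in cells grouped by their Irf7 UMIs. In mutant cells with 0 Irf7 UMIs, Stat2 was at 42.9 CPM (35.2 to 51.7) of the thinned UMIs. With 1 UMI it was at 51.4 (44.9 to 58.6), with 2 to 4 at 53.0 (49.2 to 57.0), and with 5 or more at 68.6 (62.3 to 75.4). Stat2 was therefore higher in the cells with most Irf7, but even the mutant cells without a captured Irf7 molecule lay above the control cells with 0, 1 or 2 to 4 Irf7 UMIs. Control cells with 0 Irf7 UMIs had 8.73 CPM of Stat2 (7.55 to 10.0), those with 1 had 12.9 (10.1 to 16.3), and those with 2 to 4 had 13.7 (9.34 to 19.3). The 46 control cells with 5 or more held just 3 Stat2 UMIs, 13.1 CPM (2.69 to 38.2), too few to set that class apart. Irf9 showed no order over the mutant classes, with 63.5 CPM (54.0 to 74.1), 49.3 (43.0 to 56.4), 53.8 (50.0 to 57.9) and 58.1 (52.3 to 64.4). Ifnar1 in the mutant library went from 52.4 CPM (43.8 to 62.1) with 0 Irf7 UMIs to 70.8 (64.4 to 77.8) with 5 or more, and Jak1 from 117 (104 to 132) to 119 (110 to 127).

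Cells were next grouped by cycling and by osteoclast transcripts. At 5000 UMIs per cell, a cell was called cycling where the mitosis and replication genes Mki67, Top2a, Aurka and Cdk1 summed to 3 UMIs or more, and osteoclast where the resorption and fusion genes Acp5, Ctsk, Dcstamp and Mmp9 did. Control cells fell into 236 with both, 368 with osteoclast transcripts only, 2168 cycling only and 3329 with neither, and mutant cells into 59, 139, 1686 and 3428. The gates do not hold the same cells in both libraries, since Mmp9 was at 58.0 CPM in control cells and 6.05 in mutant cells, and Acp5 at 105 and 69.0.

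In the control library Irf7 had a clear order over these states. It was at 94.3 CPM (92.2 to 96.4) in cells with neither, 69.1 (67.0 to 71.2) in cycling cells, 49.2 (45.1 to 53.6) in cells with osteoclast transcripts only and 36.5 (32.5 to 40.9) in cells with both, and no neighbouring intervals overlapped. In the mutant library the same states had 635 CPM (630 to 641), 570 (563 to 577), 663 (635 to 691) and 504 (471 to 539). The cells with osteoclast transcripts only were thus among the lower ones in the control, with a log2 ratio to cells with neither of -0.94 (-1.07 to -0.81), and at the level of the cells with neither in the mutant library, with 0.062 (-0.00049 to 0.12). The share of osteoclast-only cells with an Irf7 UMI was 19.3% in control cells and 92.1% in mutant cells.

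Stat2 fell in the same order in the control library, where, of neighbouring intervals, only those of cycling and osteoclast-only cells did not overlap. It was at 11.2 CPM (10.5 to 11.9) in cells with neither, 9.82 (9.06 to 10.6) in cycling cells, 5.35 (4.05 to 6.94) in osteoclast-only cells and 2.92 (1.87 to 4.34) in cells with both. The log2 ratio to cells with neither was -0.19 (-0.34 to -0.039) in cycling cells, -1.06 (-1.48 to -0.68) in osteoclast-only cells and -1.94 (-2.59 to -1.36) in cells with both. In the mutant library Stat2 was at 54.5 CPM (52.8 to 56.1), 52.3 (50.2 to 54.5), 47.5 (40.4 to 55.5) and 43.1 (33.9 to 54.2), with neighbouring intervals that overlapped throughout. The value of 2.92 CPM rests on 24 UMIs.

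The receptor chains had a milder form of the same gradient. Ifnar1 in the control library was at 55.1 CPM (53.5 to 56.8) in cells with neither, 45.7 (44.1 to 47.4) in cycling cells, 33.6 (30.2 to 37.3) in osteoclast-only cells and 30.3 (26.6 to 34.3) in cells with both. The corresponding mutant levels were 66.9 CPM (65.1 to 68.7), 57.6 (55.4 to 59.8), 66.7 (58.2 to 76.0) and 56.0 (45.3 to 68.3). Osteoclast-only cells therefore stood below cells with neither in the control library and level with them in the mutant library. In the control the intervals of the osteoclast-only cells and the cells with both overlapped. In the mutant library all overlapped except those of cells with neither and cycling cells. Ifnar2 was at 68.3 CPM (66.5 to 70.1), 63.7 (61.7 to 65.7), 49.7 (45.5 to 54.1) and 44.9 (40.4 to 49.7) in the control, where the last pair overlapped. In the mutant library Ifnar2 was at 82.7 (80.7 to 84.7), 81.2 (78.6 to 83.9), 84.9 (75.3 to 95.4) and 77.0 (64.4 to 91.3), where all neighbours overlapped.

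Jak1, Tyk2 and Irf9 varied less over the states. Jak1 in the control ranged from 78.0 CPM (72.8 to 83.5) in osteoclast-only cells to 96.4 (94.3 to 98.6) in cells with neither, and in the mutant library from 103 (88.0 to 119) in cells with both to 118 (116 to 121) in cells with neither. Tyk2 stayed between 9.30 and 12.0 CPM in control cells and between 9.33 and 12.2 in mutant cells, with overlapping intervals. Irf9 in the control was highest in cycling cells at 35.2 CPM (33.7 to 36.7) and lowest in osteoclast-only cells at 25.4 (22.4 to 28.6). Its mutant levels lay between 46.0 CPM (39.0 to 53.9) and 57.1 CPM (46.4 to 69.6), with overlapping intervals.

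Of the feedback inhibitors, Socs1 departed from the order of Irf7. Socs3 was highest in control cells with neither, and the intervals of the other control states overlapped, so no order among those is set. Socs1 was higher in osteoclast-only cells of both libraries, at 14.8 CPM (12.6 to 17.3) in control cells and 22.1 (17.4 to 27.8) in mutant cells, against 8.98 (8.34 to 9.66) and 9.64 (8.97 to 10.3) in cells with neither. In cells with both it was at 11.4 (9.24 to 14.0) and 12.2 (7.58 to 18.7). These intervals overlapped those of osteoclast-only cells, so the highest state is not set. The log2 ratio of Socs1 in osteoclast-only cells to cells with neither was 0.72 (0.47 to 0.97) in control cells and 1.20 (0.83 to 1.54) in mutant cells. Socs1 thus went the other way from the receptor chains and Irf7 in control cells. Socs3 in the control was at 8.65 CPM (8.02 to 9.31) in cells with neither, 5.61 (5.04 to 6.23) in cycling cells, 5.45 (4.14 to 7.04) in osteoclast-only cells and 3.53 (2.36 to 5.07) in cells with both. In the mutant library it was at 8.24 CPM (7.62 to 8.89), 7.40 (6.63 to 8.23), 4.48 (2.51 to 7.39) and 9.91 (5.77 to 15.9), the last of which rests on 17 UMIs.

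**Figure D3:**
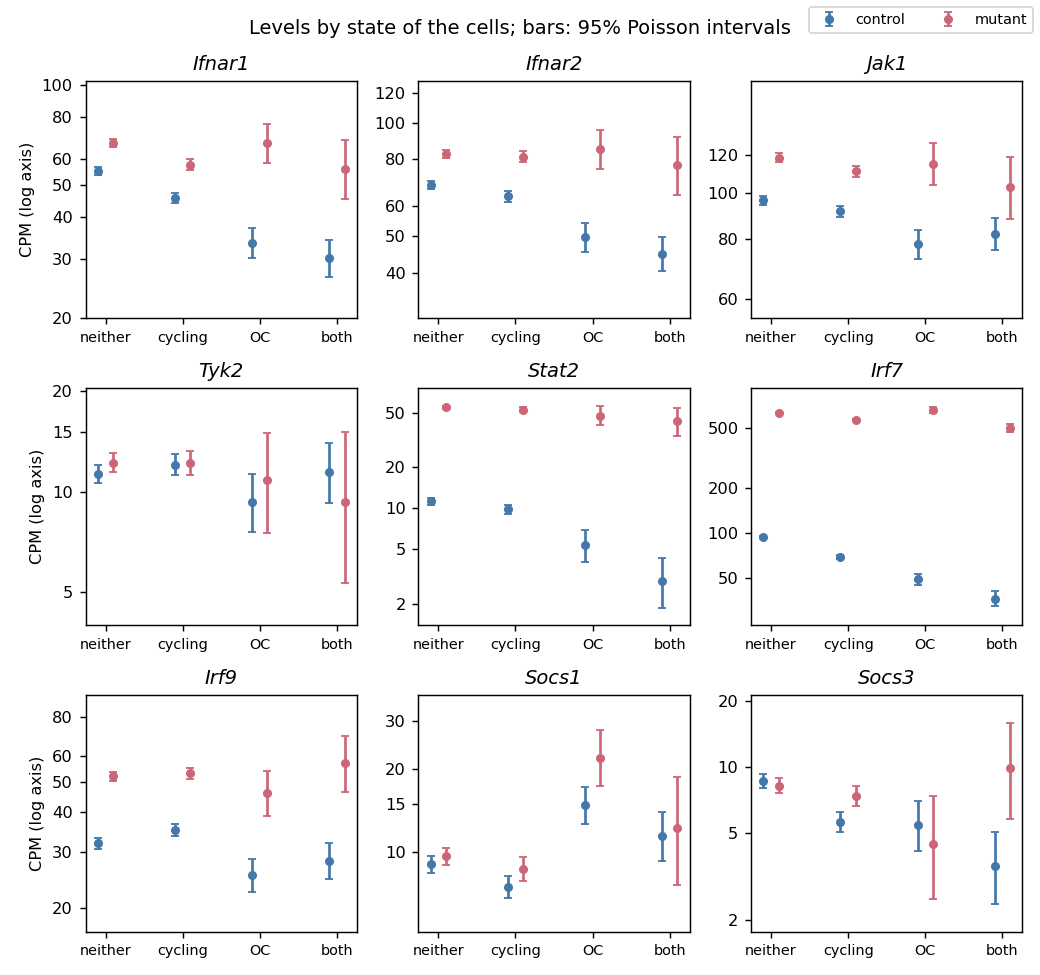
Level of each of the 9 genes in CPM (log axes) by state of the cells, where OC stands for cells with osteoclast transcripts only and both for cycling cells with them; blue is the control and red the mutant library, and bars are 95% Poisson intervals. Irf7, Stat2, Ifnar1 and Ifnar2 step down from left to right in the control library. In the mutant library Irf7 and Ifnar1 are lower in cycling cells than in cells with neither but not in OC cells. Socs1 is higher in OC cells than in cells with neither in each library, with intervals of OC and both that overlap.

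The same steps were read beside all genes. In control cells with both kinds of transcripts 7 of the 9 genes were lower than in cells with neither, among them all 5 whose mean reached 20 CPM, while 33.8% of all genes at that mean were lower and their median log2 ratio was 0.19. Of those 5, Irf7 alone was at least 2-fold lower, against 5.31% of all genes, and below that mean Stat2 and Socs3 were as well. In control osteoclast-only cells 8 of the 9 and again all 5 were lower, against 40.1% of all genes, but 0 of the 5 were at least 2-fold lower, against 4.16%. In mutant cells with both, 6 of the 9 and 5 of the 6 at that mean were lower, against 39.0% of all genes. Of those 6, 0 were at least 2-fold lower, against 0.502%. In mutant osteoclast-only cells 6 of the 9 and 4 of the 6 were lower, against 46.8% of all genes. Again 0 of the 6 were at least 2-fold lower, against 0.599%.

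As a result the ratio between the libraries was larger in cells with osteoclast transcripts. The log2 ratio of Irf7, mutant over control, was 2.75 (2.72 to 2.79) in cells with neither, 3.04 in cycling cells, 3.75 (3.61 to 3.89) in osteoclast-only cells and 3.79 (3.60 to 3.98) in cells with both. That of Stat2 was 2.28 (2.18 to 2.39), 2.41 (2.28 to 2.54), 3.15 (2.71 to 3.61) and 3.89 (3.20 to 4.61). Both genes thus differed in every state, and more so in cells with osteoclast transcripts. Osteoclast-only cells exceeded cells with neither by a difference of log2 ratios of 1.00 (0.86 to 1.14) for Irf7, 0.87 (0.42 to 1.32) for Stat2, 0.71 (0.46 to 0.96) for Ifnar1, 0.50 (0.28 to 0.71) for Ifnar2, 0.47 (0.050 to 0.90) for Socs1 and 0.27 (0.090 to 0.45) for Jak1. For Tyk2, Irf9 and Socs3 that interval spanned 0. With gates that need 1 UMI in place of 3, the difference fell to 0.27 for Irf7 and 0.40 for Stat2. With gates of 5 UMIs it was 1.03 and 0.43, and without Acp5 in the gate 0.86 and 0.42. Its size therefore depends on how osteoclast cells are drawn.

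Counted by state, 3 of the 6 members whose mean reached 20 CPM were at least 2-fold higher in mutant cells with both kinds of transcripts, where 9.13% of all genes were. The same held for 2 of 6 in osteoclast-only cells against 9.07%, 2 of 6 in cycling cells against 5.48%, and 2 of 6 in cells with neither against 4.98%. Irf7 and Stat2 were among them in every state, and Irf9, with a log2 ratio of 1.02 (0.67 to 1.37), was the added gene in cells with both. Stat2, at 2.92 to 11.2 CPM in the control states, reached that mean in every state through the mutant library alone. Its place in these counts therefore follows in part from the CPM minimum.

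The rest of the pathway was read from lists of related genes. Among 12 interferon genes 10 had 0 UMIs in both libraries. The interval of such a gene reaches 0.0225 CPM in control cells and 0.0281 CPM in mutant cells. Ifnb1, interferon beta, had 2 UMIs in 1 control cell and 100 UMIs in 32 mutant cells, 0.0122 CPM (0.00148 to 0.0442) and 0.761 CPM (0.619 to 0.925). In those 32 mutant cells, a group chosen after values were seen, Irf7 was at 1580 CPM (1489 to 1676) against 607 (603 to 611) in the other 5631. Stat2 was at 188 CPM (157 to 222) against 53.0 (51.7 to 54.2), Tyk2 at 36.7 (24.0 to 53.8) against 12.0 (11.4 to 12.6), and Socs1 at 26.8 (16.1 to 41.9) against 9.61 (9.08 to 10.2). Tyk2 and Socs1, which barely differed between the libraries, were thus higher in the few cells with interferon beta transcripts, whereas Ifnar1 was at 62.1 CPM (45.1 to 83.3) against 63.6 (62.2 to 65.0). In the 32 cells the Tyk2 and Socs1 levels rest on 26 and 19 UMIs. Of these cells 14 held exactly 1 Ifnb1 UMI, and the highest count in 1 cell was 17. The other 5631 cells kept an Irf7 level far above the control.

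Of 4 other interferon receptor chains, the 3 whose mean reached 20 CPM were higher in the mutant library and 0 of them 2-fold. Of all 5219 genes at that mean, 2735 were higher and 295 at least 2-fold higher. Ifngr2 and Il10rb, chains for interferon gamma and for interferon lambda and interleukin-10, had log2 ratios of 0.39 and 0.49. Ifngr1, the ligand-binding chain for interferon gamma, was at 55.9 CPM (54.8 to 57.0) and 102 CPM (101 to 104), a log2 ratio of 0.87, which is larger than that of either Ifnar chain. Among 7 other IRF genes the 3 with that mean, Irf2, Irf5 and Irf8, were higher by log2 ratios of 0.65, 0.28 and 0.21. Irf7 therefore differed far more than its relatives at that level. Irf1, a target of both interferon types, was at 9.94 CPM (9.46 to 10.4) and 24.8 CPM (23.9 to 25.7), a log2 ratio of 1.32 below that mean. Of 5 other STAT genes, Stat3 and Stat6 had the mean and log2 ratios of 0.61 and 0.14, and of the 2 other kinases Jak2 went from 9.49 to 19.8 CPM (log2 ratio 1.06) and Jak3 from 2.87 to 5.34.

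Among 15 other feedback genes and phosphatases 7 had a mean of at least 20 CPM, 5 of which were higher, 2 lower and 1 at least 2-fold higher. Of the 5219 genes at that mean 2735 were higher, 2484 lower and 295 at least 2-fold higher. The 1 list gene past 2-fold was Usp18, an interferon-induced protease that sits on Ifnar2 and blunts the receptor. It was at 20.5 CPM (19.8 to 21.2) in control cells and 87.9 CPM (86.3 to 89.5) in mutant cells, with a log2 ratio of 2.10 (2.05 to 2.16). Usp18 thus stood with Irf7 and Stat2 rather than with Socs1 and Socs3. Ptpn6, a phosphatase of blood cells, was at 127 CPM (125 to 129) and 192 CPM (189 to 194), a log2 ratio of 0.60, and Ptpn1, a phosphatase that acts on Tyk2, had 0.89.

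**Figure D4:**
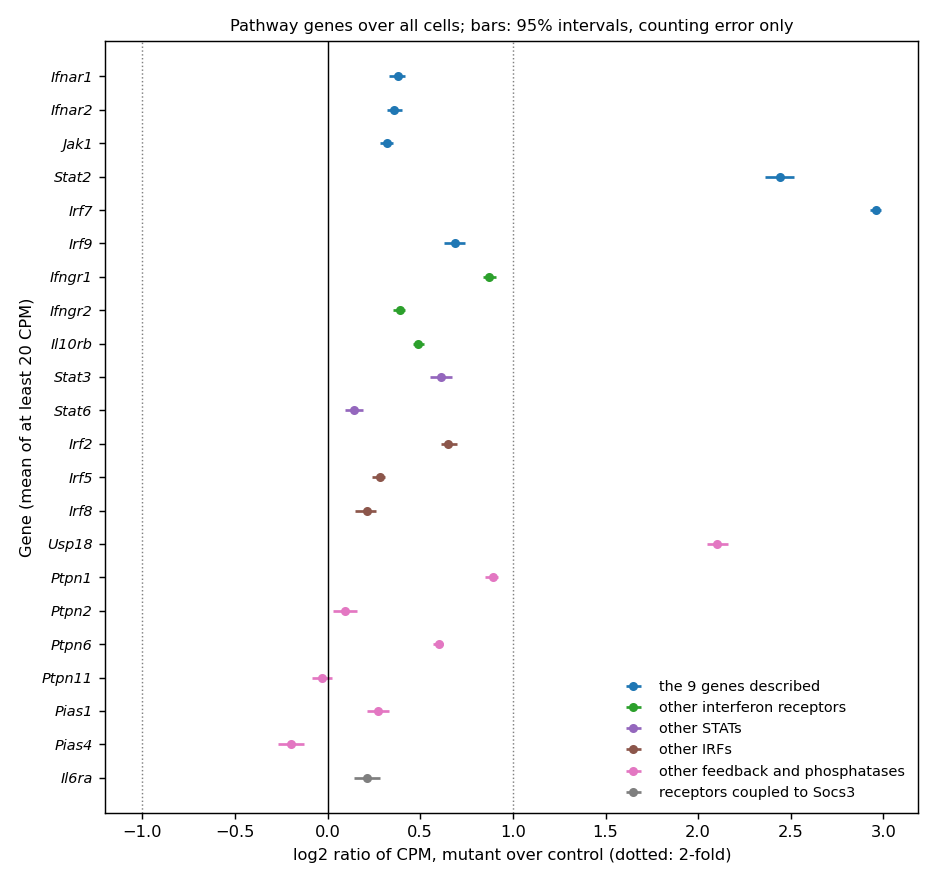
Log2 ratio of CPM, mutant over control library, for the pathway genes whose mean reached 20 CPM, coloured by list; bars are 95% intervals for counting error and dotted lines mark 2-fold. Irf7, Stat2 and Usp18 lie beyond 2-fold at 2.96, 2.44 and 2.10, and all others lie within it.

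The genes whose level was most like that of a member over the 8 groups of library and state were ranked by Pearson's r of log2 CPM among the 5219 genes. Irf7 was close to Dtx3l (0.999) and Bst2 (0.998), and Stat2 to Phf11d (0.999), Sirpb1c (0.998) and Gch1 (0.997). Ifnar1 came closest to Plin2 (0.994), Evl (0.992) and Ctsl (0.992), and Ifnar2 to Ms4a7, Clec12a and Csf2ra (0.995 each). Jak1 was nearest to Hbp1 (0.996), Myo1f (0.994) and Pikfyve (0.993), and Irf9 to Arf2 (0.994), Osbpl3 (0.994) and Susd6 (0.992). The 8 groups come from 2 libraries, so these values describe the gap between them as much as the states.

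Cells with neutrophil or MHC class II transcripts were more frequent in the mutant library. A gate on the neutrophil genes S100a8, S100a9, Camp and Ngp held 0.291% of control and 1.60% of mutant cells, one on MHC class II genes 0.161% and 1.05%, and one on stromal genes 3 cells in each library. Class II-gate cells carried the macrophage marker Csf1r, at 348 CPM in control and 361 CPM in mutant cells. Cells in none of the gates had 256 and 405 CPM, so the class II gate does not set another cell type apart. Over all cells the summed neutrophil genes were higher as well, S100a8 alone going from 111 to 880 CPM. Of the markers of lymphoid cells, Cd3e had 0 UMIs in both libraries and Cd3d 5 and 4, while Nkg7 had 23 control and 124 mutant UMIs and Cd79b of B cells 43 and 139. In mutant neutrophil-gate cells 31.6% of 76 had an Irf7 UMI at equal depth, against 91.4% of the 5181 cells in none of the gates. The medians of these groups before thinning were 10165.5 and 22204.5 UMIs. Of 52 mutant class II-gate cells 90.4% (79.0 to 96.8) had an Irf7 UMI. Irf7 was higher in the mutant library within both gates. Neutrophil-gate cells had 12.0 CPM (1.45 to 43.4) in the control, resting on 2 UMIs, and 281 (252 to 313) in the mutant library. Class II-gate cells had 199 CPM (142 to 271) and 683 (627 to 744). Without the cells of the 3 gates Irf7 was at 78.7 CPM (77.3 to 80.1) in control cells and 615 (611 to 619) in mutant cells, and Stat2 at 9.90 (9.42 to 10.4) and 53.8 (52.6 to 55.1), about as with them. The part of free RNA in the shares of cells was not tested.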

How the data were processed

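Single-cell libraries of 1 control and 1 mutant culture were analysed. The authors deposited UMI counts per gene and cell, made with Cell Ranger 6.1.0 (file header) on GRCm39. The annotation release, strand setting and any doublet removal are not given in the sources used here. Cells with at least 500 genes and at most 10% mitochondrial UMIs were kept. Doublets were kept, and removed as an alternative. Counts were summed per library or state and divided by the total (CPM), with exact Poisson intervals and exact conditional intervals for ratios. A gene counted as called at 2-fold whose mean reached 20 CPM. Shares of cells used counts thinned once to 5000 UMIs per cell, which left out 168 control and 351 mutant cells, with Clopper-Pearson intervals. Cells are not replicates, so no p-value was computed. The ratio and the thinning were tested on simulated data.

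The text names the 9 members, the genes of each related list that passed 2-fold at 20 CPM with up to 2 more of the highest mean, and the 3 nearest genes of members at 20 CPM, 1 of which is not reported here. Ifngr1, Ifnlr1, Irf1, Irf8, Il10ra and Csf3r fell outside this rule and were chosen after their values were seen. Members and lists were chosen with earlier results of these data known. Promoters came from GENCODE M39, which held 31977 of the 32544 gene identifiers. Python 3.11.15, numpy 2.4.6, scipy 1.17.1 and edgeR 4.0.16 (TMM factors only) were used. Alternatives covered scaling, the CPM minimum, thinning depth, gates, cell filters, doublets and cell weights.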

Additional observations from a re-analysis of the deposited data

How the results depend on the processing

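The count of members at least 2-fold higher stayed at 2 under every scaling, filter and doublet setting run. The log2 ratio of Irf7 over all cells was 2.90 with TMM scaling, 2.87 with median-of-ratios scaling and 2.85 with totals without mitochondrial and ribosomal protein genes. That of Stat2 was 2.35 and 2.33 with the last pair, and 2.54 with every cell weighing alike. The share of all genes at least 2-fold higher was 12.5% among genes with at least 1 UMI in each library. The Irf7 share difference was 54.3 points at 2000 UMIs per cell, 58.6 at 10000 and 37.8 without thinning. The difference of log2 ratios between osteoclast-only cells and cells with neither was 0.27 for Irf7 and 0.40 for Stat2 with gates of 1 UMI. For Irf7 and Stat2 it was 0.86 and 0.42 without Acp5 in the gate, and 1.18 and 0.93 with doublets removed. The cause was not tested. Among values whose interval lay away from 0, 6 changed sign: the unthinned share differences of Ifnar2 (-0.0128 points) and Jak1 (-1.04 points), the Jak1 ratio in cells with both kinds of transcripts with gates of 5 UMIs (-0.00087), the Socs1 difference of ratios with gates of 1 UMI (-0.30), and the Socs3 ratio in cells with both with gates of 1 UMI (-0.080) and without Acp5 (-0.26). Another 24 values changed sign where the interval had spanned 0, 11 of Tyk2, 7 of Socs3 and 6 of Socs1, so no direction is set for these. No paired analysis was possible because each group has 1 library, and for the same reason no library could be left out. State settings that leave out neutrophil, stromal and class II gate cells or weigh cells alike were chosen after seeing the data. Depth limits Tyk2, Socs1 and Socs3 within states, where levels rest on as few as 15 UMIs.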

Other observations

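Cytokine receptors that signal through JAK proteins were read beside Socs3. Il10ra, the interleukin-10 receptor chain that quiets macrophages, was at 5.80 CPM (5.44 to 6.18) in control cells and 12.6 CPM (12.0 to 13.2) in mutant cells. Il6st, the shared chain of the interleukin-6 family, was at 11.5 CPM (11.0 to 12.0) and 12.1 CPM (11.5 to 12.7), and Il6ra at 19.1 CPM (18.5 to 19.8) and 22.1 CPM (21.3 to 23.0). Csf3r, the granulocyte growth factor receptor, was at 0.379 CPM (0.291 to 0.486) and 1.85 CPM (1.62 to 2.10), in libraries whose neutrophil-gate cells made up 0.291% and 1.60%. Ifnlr1, the chain for interferon lambda, had 6 UMIs in control and 80 UMIs in 73 cells of the mutant library.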
